A study of Mus musculus with 40 samples.

Results

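A set of 9 genes that carry time-of-day information out of the circadian clock were followed in mouse liver across diet, pioglitazone and loss of hepatocyte PPARγ. They are Dbp, Tef and Hlf, which encode the activators of the PAR bZIP family; Nfil3, which encodes a repressor of the same DNA element; Ciart, Bhlhe40 and Bhlhe41, which encode repressors acting on the E-box; Noct, which encodes the phosphatase nocturnin; and Usp2, which encodes a ubiquitin-specific protease. The members were taken by gene symbol, and 9 of 9 were found among the 40594 genes that the WT and KO count tables share. All 9 passed the filter of at least 1 CPM (counts scaled to the library total) in at least 5 of 40 mice, which left 12942 genes for testing.

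In the clock of liver cells, BMAL1 (Arntl) pairs with CLOCK or NPAS2 on E-box sequences and drives the Per and Cry genes, whose products repress that drive, while REV-ERB proteins (Nr1d1, Nr1d2) repress Arntl. The same E-box drive acts on output regulators such as Dbp, whose products in turn act on D-box sequences in genes of bile acid, xenobiotic and lipid metabolism, and NFIL3 competes with them there. Most of these transcripts rise and fall over the day in liver and also respond to feeding, so a level read at one moment depends on that moment. The hour at which each mouse was killed is not given in the sources used here, and its part in any difference below was not tested.

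The livers came from 40 male mice of 5 months, 20 wildtype (WT) of strain C57BL6/J and 20 in which Alb-Cre, a transgene driven by the albumin promoter of hepatocytes, deleted a loxP-flanked PPARγ gene (KO). Each genotype had 4 groups of 5 mice, fed control diet (control), control diet with pioglitazone (Pio), a high-fat diet (HFD), or that diet with pioglitazone (HFD-Pio). Pioglitazone is an agonist of PPARγ. The WT mice are described as wildtype C57BL6/J and not as loxP or Cre carriers, and the genotypes were counted in separate tables, so that genotype, Cre and table cannot be told apart in a level; levels were therefore compared within a genotype, and only the size of a pioglitazone or diet effect was compared between genotypes. Mice are counted as separate animals, as each library carries its own mouse number.

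Total counts per library lay between 15788242 and 49857017 in WT and between 21542958 and 28334251 in KO. Pparg, the targeted gene, had 5.79 to 14.2 CPM in WT and 3.01 to 9.90 CPM in KO livers, ranges that overlap; counts over the whole gene do not isolate the deleted part. A total of 5 libraries stood apart from the other 19 of their genotype, with 24.2% to 82.3% of all tested genes outside the range of the others. They were WT control mouse 832, WT HFD mouse 829, WT Pio mouse 845, KO HFD mouse 9 and, at 82.3%, KO Pio mouse 13, in which albumin (Alb) was 10663 CPM against a median of 70165 CPM over the 40 mice.

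The hepatocyte markers Alb, Apoa1, Ttr, Serpina1c and Cps1 were detected in all 40 libraries. Fewer cells of a type and less RNA per cell cannot be told apart in such bulk tissue.

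The start regions of these genes are shown for the members called in WT liver on control diet (Ciart, Hlf and Nfil3) and for the 2 others whose RefSeq start window holds the E-box letters CACGTG (Tef and Bhlhe41). Each run is 200 bases of GRCm38.p6, 5′ to 3′ on the strand of the gene, that end at the base before the RefSeq transcription start. Capitals mark CACGTG in Ciart, Tef and Bhlhe41, the letters TGACGTCA in Hlf, and AGGTCA or its reverse complement in Nfil3, where it stands reversed.
Ciart, chr3:95882229-95882428, minus strand: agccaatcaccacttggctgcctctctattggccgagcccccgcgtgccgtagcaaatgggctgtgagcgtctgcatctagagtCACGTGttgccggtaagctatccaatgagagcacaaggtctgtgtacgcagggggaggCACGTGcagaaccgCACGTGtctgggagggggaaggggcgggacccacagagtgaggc
Tef, chr15:81802473-81802672, plus strand: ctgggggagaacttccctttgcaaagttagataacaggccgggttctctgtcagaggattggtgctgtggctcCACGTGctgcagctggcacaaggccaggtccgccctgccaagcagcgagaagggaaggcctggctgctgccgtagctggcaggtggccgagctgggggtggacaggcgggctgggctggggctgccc
Bhlhe41, chr6:145865421-145865620, minus strand: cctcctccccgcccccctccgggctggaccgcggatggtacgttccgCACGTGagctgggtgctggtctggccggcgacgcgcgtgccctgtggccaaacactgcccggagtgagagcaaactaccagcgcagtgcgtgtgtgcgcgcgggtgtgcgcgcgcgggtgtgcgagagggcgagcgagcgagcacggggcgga
Hlf, chr11:90390918-90391117, minus strand: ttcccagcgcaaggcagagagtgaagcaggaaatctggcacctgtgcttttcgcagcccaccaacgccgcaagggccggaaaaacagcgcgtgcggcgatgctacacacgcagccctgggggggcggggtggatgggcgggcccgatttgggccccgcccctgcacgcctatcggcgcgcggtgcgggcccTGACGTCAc
Nfil3, chr13:52981040-52981239, minus strand: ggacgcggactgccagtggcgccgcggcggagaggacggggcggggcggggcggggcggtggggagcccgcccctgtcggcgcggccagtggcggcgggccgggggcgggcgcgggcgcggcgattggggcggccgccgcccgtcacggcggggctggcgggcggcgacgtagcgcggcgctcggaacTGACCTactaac

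Windows of 300 bases, 250 before to 50 after the start, were searched on both strands for 4 motifs. CACGTG begins at 116, 58 and 44 bases before the start of Ciart, at 153 before that of Bhlhe41, and at 127 and 138 before the 2 RefSeq starts of Tef, and it is in 7.15% of the 32851 windows of all genes. Ciart was the member with 3 matches. The windows of Dbp, Usp2, Hlf, Nfil3 and Noct held no CACGTG. TGACGTCA, the palindromic cyclic AMP response element, begins 9 bases before the start of Hlf and is in 1.79% of windows. AGGTCA, the core letters of many nuclear receptor sites, begins 12 bases before the start of Nfil3 and is in 16.3% of windows. TTANNTAA, the outer letters of a D-box, was found 174 bases before the first start of Tef and in 6% of windows. Bhlhe40 is not in the window table. The bases after the RefSeq start were found in a GENCODE transcript of each of the 5 genes shown. The RefSeq start of Hlf lies 22 bases upstream of the GENCODE gene model. Counted the same way, those of Ciart, Nfil3, Bhlhe41 and Tef lie at -23, -34, -138 and -252 bases, where a negative value is inside the model. The whole run printed for Tef lies inside its gene model, which begins at chr15:81802421. These matches describe letters only.

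Per base of exon, the most abundant member was Bhlhe40, with a median over the 40 mice of 24.3 CPM per kilobase, followed by Tef at 16.1, Nfil3 at 15.2, Hlf at 9.99, Dbp at 9.82, Usp2 at 4.36, Noct at 3.42, Ciart at 2.19 and Bhlhe41 at 0.449 CPM per kilobase. The members also differed in how much they varied between mice of one group. The pooled within-group SD of log2 CPM was 1.00 in WT for Dbp and for Bhlhe41, which placed each at the percentile of 98.8 among all tested genes, whose median SD was 0.315. Nfil3 was steadier than most genes in WT, with an SD of 0.261 at percentile 34.4. In KO, Dbp had an SD of 1.38 at percentile 99.6 over all mice and of 1.02 at percentile 98.9 without mouse 13. Tef had an SD of 0.488 and of 0.486, at percentile 60.5 with the mouse and 89.4 without it; the median SD of all genes was 0.425 with it and 0.193 without it. The plot of all 9 members by mouse shows this spread.

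**Figure D1:**
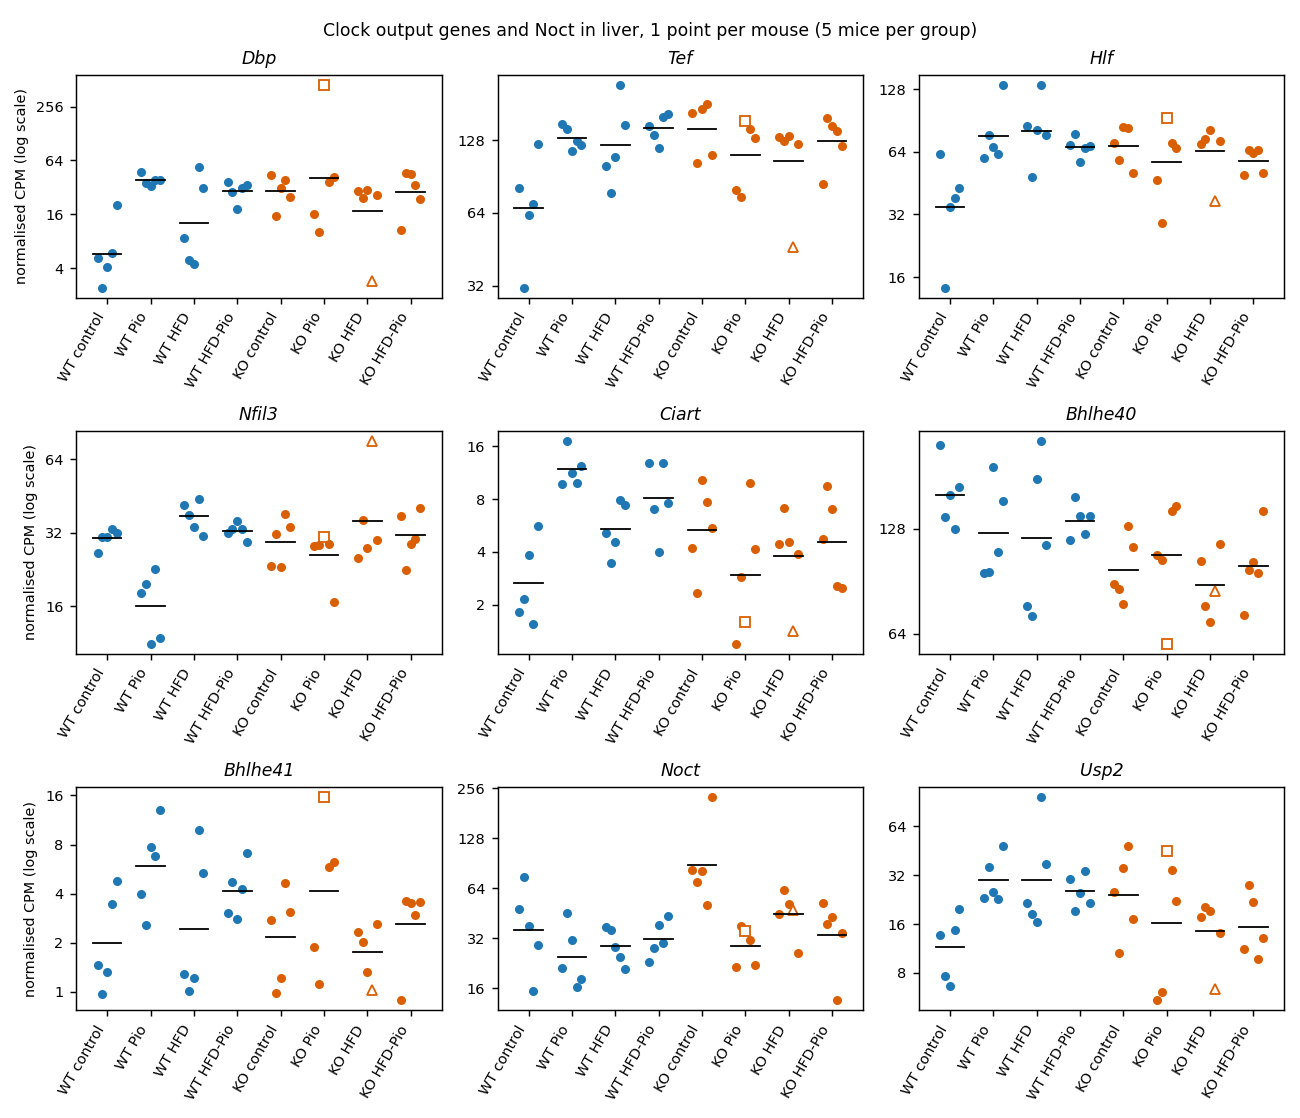
Normalised CPM on a log scale (vertical axis) of the 9 members in the 8 groups (horizontal axis), 1 point per mouse, WT in blue and KO in orange. The black line is the geometric mean of the 5 mice, the open square is KO Pio mouse 13 and the open triangle KO HFD mouse 9; Dbp in WT control liver lies between 2.42 and 20.2 CPM, below the 33.1 to 47.8 CPM of WT Pio liver.

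Dbp, on chromosome 7 (GRCm38, chr7:45705088-45710203, plus strand), is the member with the widest range. In WT control liver it was 5.21, 2.42, 4.11, 5.99 and 20.2 CPM, and in WT Pio liver 47.8, 36.1, 33.1, 38.7 and 38.8 CPM. The 2 groups did not overlap, and the mean went from 7.58 ± 7.17 (SD, n = 5) to 38.9 ± 5.50 CPM. The fitted difference was 2.35 ± 0.75 (SE) on the log2 scale, a fold change of 5.10, with an adjusted p of 0.0684 that missed the threshold of 0.05 (edgeR quasi-likelihood test, Benjamini-Hochberg over all tested genes). The exact two-sided permutation test of the 5 against 5 mice gave p = 0.00794, the smallest that 5 against 5 mice can give. The adjusted p was 0.00729 without KO Pio mouse 13, which is in neither group. It was 0.0201 with the WT mice fitted alone and 0.0244 with DESeq2. Over the 46 alternative fits it ranged from 0.00344 to 0.180, and Dbp was called in 7 of them and not in 39.

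Under HFD the WT Dbp values were 8.75, 4.93, 4.48, 53.9 and 31.6 CPM, and under HFD-Pio 36.3, 28.7, 18.4, 31.3 and 34.5 CPM. Sorted over the 20 WT mice, the widest gap between neighbours was that from 8.75 to 18.4 CPM. Below it were 7 mice, 4 of the WT control and 3 of the WT HFD group, and none of the 10 mice that received pioglitazone. The gap was found in these same values, so this split is a description and not a test. On HFD the pioglitazone groups overlapped and the log2 difference was 0.52 (adjusted p = 0.774). HFD against control diet without pioglitazone gave a log2 difference of 1.44 (adjusted p = 0.395), which was 0.70 without WT HFD mouse 829.

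In KO liver, Dbp was 44.5, 15.2, 31.8, 39.1 and 25.3 CPM under control diet and 16.2, 10.2, 449.9, 36.6 and 41.5 CPM under Pio. The groups overlapped, and 1 mouse set the mean: with KO Pio mouse 13 the Pio mean was 111 ± 190 CPM (n = 5) against 31.2 ± 11.5 in KO control, and without it 26.1 ± 15.2 (n = 4). The log2 difference was 1.83 (adjusted p = 0.0971) with the mouse and -0.23 (adjusted p = 0.968) without it. In KO HFD liver the values were 29.1, 24.2, 29.7, 2.87 and 26.1 CPM, where 2.87 is mouse 9, and in KO HFD-Pio liver 10.6, 46.9, 45.2, 34.2 and 24.0 CPM. The log2 difference between HFD-Pio and Pio, -1.79 (adjusted p = 0.121), also rested on mouse 13 and was 0.29 without it. In that library 4 of the 5 hepatocyte markers were below their median over the 40 mice, and the cholangiocyte markers Sox9 (62.6 CPM, median 15.6) and Epcam (4.17 CPM, median 1.30) were at their highest of the 40, while Krt19 and Krt7 were not. The summed level of these 4 cholangiocyte markers was 14.4 to 73.1 CPM in KO Pio and 10.2 to 22.5 CPM in KO control liver. The acinar marker Cela2a stood at 58.4 CPM in mouse 13, against a median of 0.286 CPM and a highest value of 82.6 CPM in another mouse. The other acinar markers in mouse 13 were Cpa1 at 2.68, Prss2 at 2.23 and Amy2a5 at 0 CPM. The summed level of the 4 acinar markers reached 63.3 CPM in KO Pio and 255 CPM in KO HFD liver. Their part in these values was not tested.

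Sphk2, on the opposite strand, overlaps Dbp, and the strand setting of the counting is not given in the sources used here. Sphk2 had 377.9 CPM in KO Pio mouse 13 and 425.2 CPM in WT HFD mouse 829, the mice with the highest Dbp of their genotype, against a median of 100.5 CPM. Between WT Pio and WT control it differed by 0.09 ± 0.34 (SE) on the log2 scale (adjusted p = 0.926), while Dbp differed by 2.35. Between KO Pio and KO control, with mouse 13 included, Sphk2 was higher by 1.32 ± 0.34 (SE; adjusted p = 0.0224). Without that mouse the KO Pio mice had 55.9 to 87.5 CPM, and the log2 difference of Sphk2 was 0.49 ± 0.24 (SE; adjusted p = 0.478). Whether reads of the 2 genes were told apart was not tested.

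Hlf (chr11:90336536-90390895, minus strand) and Tef (chr15:81802421-81826863, plus strand) moved less. Hlf was 62.3, 14.2, 34.9, 38.4 and 42.7 CPM in WT control and 59.6, 77.1, 67.2, 62.5 and 134.5 CPM in WT Pio liver. It was higher under Pio by 1.06 ± 0.29 (SE) on the log2 scale, 2.08-fold (adjusted p = 0.0307), with 4 of 5 Pio mice above every control mouse. The highest and lowest values are of mice 845 and 832, both among the libraries that stand apart, and without the 5 such libraries the log2 difference was 0.58 (adjusted p = 0.0508). The call was also lost without any of WT control mice 832, 833 and 834 or WT Pio mouse 845, with an adjusted p of at most 0.155. Hlf was the 1 member called for HFD against control diet in WT without pioglitazone: its HFD values were 84.9, 48.4, 81.5, 134.1 and 76.7 CPM, with a log2 difference of 1.14 ± 0.29 (SE) and an adjusted p of 0.0353, and 0.71 (adjusted p = 0.0408) without the 5 libraries.

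In WT HFD-Pio liver Hlf ranged from 57.3 to 78.3 CPM, inside the spread of the HFD group. In KO liver it lay between 29.1 and 93.3 CPM in all 20 mice, and its 4 log2 differences between KO groups, -0.19 to -0.05, were smaller than their errors.

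Tef had 31.4, 62.8, 69.5, 81.2 and 123.3 CPM, in ascending order, in WT control liver and between 115.2 and 150.0 CPM in WT Pio liver. The log2 difference of 0.84 had an adjusted p of 0.089. The highest control mouse, 835, overlapped the Pio group, as it came nearest to it for Dbp. Without the 5 libraries that stand apart the difference was 0.67 and its adjusted p 0.0393. In the other WT and KO groups the mean of Tef lay between 112 and 147 CPM, and none of its other comparisons was called.

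Nfil3 (chr13:52967209-52981073, minus strand), the repressor, moved the opposite way. It was 26.5, 30.8, 30.8, 33.1 and 32.1 CPM in WT control and 18.1, 19.7, 11.2, 22.7 and 11.9 CPM in WT Pio liver. All 5 Pio mice were below all 5 control mice. Nfil3 fell by 0.87 on the log2 scale (SE 0.23, adjusted p = 0.0226; exact permutation p = 0.00794, the smallest possible), to 0.546 of the control level. The call was lost without WT control mouse 834 or WT Pio mouse 843 or 845, with an adjusted p of at most 0.0983. In WT HFD-Pio liver it was 31.8, 33.1, 35.9, 33.3 and 29.3 CPM, all above the Pio mice on control diet, a log2 difference of 0.96 ± 0.23 (SE) with an adjusted p of 0.023. WT HFD mice had 31.0 to 44.2 CPM, and the difference between HFD-Pio and HFD, -0.21, was not called (adjusted p = 0.700). The WT Pio group on control diet was the lowest of the 8, at 16.7 ± 4.99 CPM, and the other 7 means lay between 26.7 and 39.1 CPM.

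In KO liver Nfil3 was 23.1 to 38.3 CPM under control diet and 16.7 to 30.8 CPM under Pio, with a log2 difference of -0.17 (95% interval -0.61 to 0.27). Its single high value was 76.2 CPM in KO HFD mouse 9, in which Dbp and Tef were the lowest of the 20 KO mice, at 2.87 and 46.3 CPM, and Hlf stood at 37.2 CPM. In that library 4 of the 5 macrophage markers were at their highest of the 40 mice (Adgre1 at 50.6, Clec4f at 167, Csf1r at 153 and Cd5l at 274 CPM), while Cd68 was not. The endothelial marker Pecam1 (40.1 CPM) and the stellate marker Dcn (184 CPM) were also at their highest. The endothelial markers Stab2, Clec4g and Kdr and the stellate markers Lrat, Reln and Col1a1 were not. Their part in these values was not tested.

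Ciart (chr3:95878503-95882251, minus strand), whose product represses CLOCK and BMAL1, showed a difference that held in every fit. It was 1.81, 2.16, 3.87, 1.55 and 5.63 CPM in WT control and 9.75, 17.2, 11.2, 9.90 and 12.4 CPM in WT Pio liver, with no overlap. The log2 difference was 2.01 ± 0.48 (SE), 4.03-fold (adjusted p = 0.0133; exact permutation p = 0.00794), and it stayed called in all 46 alternative fits. WT HFD liver had 3.44 to 7.90 CPM and WT HFD-Pio liver 4.00 to 12.9 CPM, and the difference between them, 0.64, was not called (adjusted p = 0.533). In KO liver Ciart was 4.21, 2.32, 10.3, 7.75 and 5.51 CPM under control diet and 1.20, 2.87, 1.60, 9.87 and 4.18 CPM under Pio. The KO groups overlapped, with a log2 difference of -0.61 (95% interval -1.53 to 0.31).

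The effect of pioglitazone on Ciart itself differed between genotypes on control diet: KO minus WT was -2.62 ± 0.67 (SE) on the log2 scale (adjusted p = 0.0164; called in all 45 alternative fits), and -2.42 (adjusted p = 0.0279) without KO Pio mouse 13. Ciart was the 1 member of 9 called in that test of the difference, in which 7.87% of all genes were called. At an unadjusted p under 0.05 it held 6 of 9 members and 27.2% of all genes. Hlf and Tef missed the threshold, with differences of -1.24 (adjusted p = 0.0522) and -1.18 (adjusted p = 0.0586), but Hlf was called in 12 and Tef in 8 of the 45 alternative fits, both with DESeq2, with limma and without the 5 libraries that stand apart. Leaving out 1 mouse made Hlf a call for KO control mouse 5, KO HFD mouse 9, KO Pio mice 13, 14 and 15, WT control mouse 831, WT HFD mice 827 and 829 and WT Pio mouse 841, and Tef for KO HFD mouse 9, KO Pio mice 14 and 15, WT control mouse 835 and WT HFD mouse 829. That of Dbp was -0.52 (adjusted p = 0.769) with mouse 13, -2.59 (adjusted p = 0.0656) without it and -2.37 (adjusted p = 0.0459) without the 5 libraries that stand apart.

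Bhlhe40 (chr6:108660629-108666925, plus strand) and Bhlhe41 (chr6:145858243-145865558, minus strand) encode the paired E-box repressors DEC1 and DEC2. Bhlhe40 lay between 59.9 and 228.7 CPM in the 40 mice. Its 8 log2 differences within a genotype were all between -0.33 and 0.19, and none was called. Bhlhe41 was scarce, with 0.891 to 15.6 CPM, so that counting error adds to its spread. Its log2 difference between WT Pio and WT control was 1.48 (adjusted p = 0.169), with 0.968 to 4.78 CPM in control and 2.58 to 13.1 CPM in Pio mice. In KO, where mouse 13 had the highest value of 15.6 CPM, the difference was 1.27 (adjusted p = 0.161), and 0.59 (adjusted p = 0.855) without that mouse.

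Usp2 (chr9:44067021-44095627, plus strand) was 13.7, 7.71, 6.65, 14.8 and 19.7 CPM in WT control and 23.3, 36.0, 25.3, 22.7 and 48.65 CPM in WT Pio liver, without overlap. The log2 difference of 1.31 ± 0.49 (SE) was not called (adjusted p = 0.133; exact permutation p = 0.00794). Under HFD the WT values were 21.7, 18.6, 16.6, 97.0 and 37.5 CPM, where 97.0 is mouse 829. The log2 difference of 1.61 from control diet (adjusted p = 0.095) was 0.91 without that mouse. In KO liver Usp2 spanned 5.44 to 48.7 CPM, with the 2 lowest values in Pio mice 11 and 12, and none of its comparisons was called.

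Noct (chr3:51224447-51251644, plus strand) was the 1 member called in a comparison between KO groups. It was 82.9, 70.2, 81.8, 50.7 and 226.8 CPM in KO control and 21.5, 37.7, 35.4, 31.3 and 22.1 CPM in KO Pio liver. Every Pio mouse was below every control mouse. Noct fell by 1.79 on the log2 scale (SE 0.37, adjusted p = 0.00848; exact permutation p = 0.00794), to 0.289 of the control level. Without KO control mouse 5, the one at 226.8 CPM, the log2 difference was -1.27 and still called, and without KO Pio mouse 13 it was -1.85 (adjusted p = 0.0308). With the KO mice fitted alone it missed the threshold (adjusted p = 0.0831).

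KO control was the highest of the 4 KO groups for Noct, at 102 ± 70.7 CPM, with mouse 5 at 226.8 and the others at 50.7 to 82.9 CPM. KO HFD liver had 26.1 to 62.5 CPM, and HFD against control diet gave -1.14 on the log2 scale (adjusted p = 0.470), or -0.62 without KO control mouse 5. KO HFD-Pio liver had 13.6 to 51.9 CPM, a log2 difference from HFD of -0.35. In WT liver Noct lay between 15.4 and 75.4 CPM, with overlapping groups and 4 log2 differences from -0.64 to 0.30, none called. The difference of the pioglitazone effects on control diet, KO minus WT, was -1.16 (adjusted p = 0.139), so an effect particular to KO was not shown; limma with sample weights gave -1.74 (adjusted p = 0.0266).

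**Figure D2:**
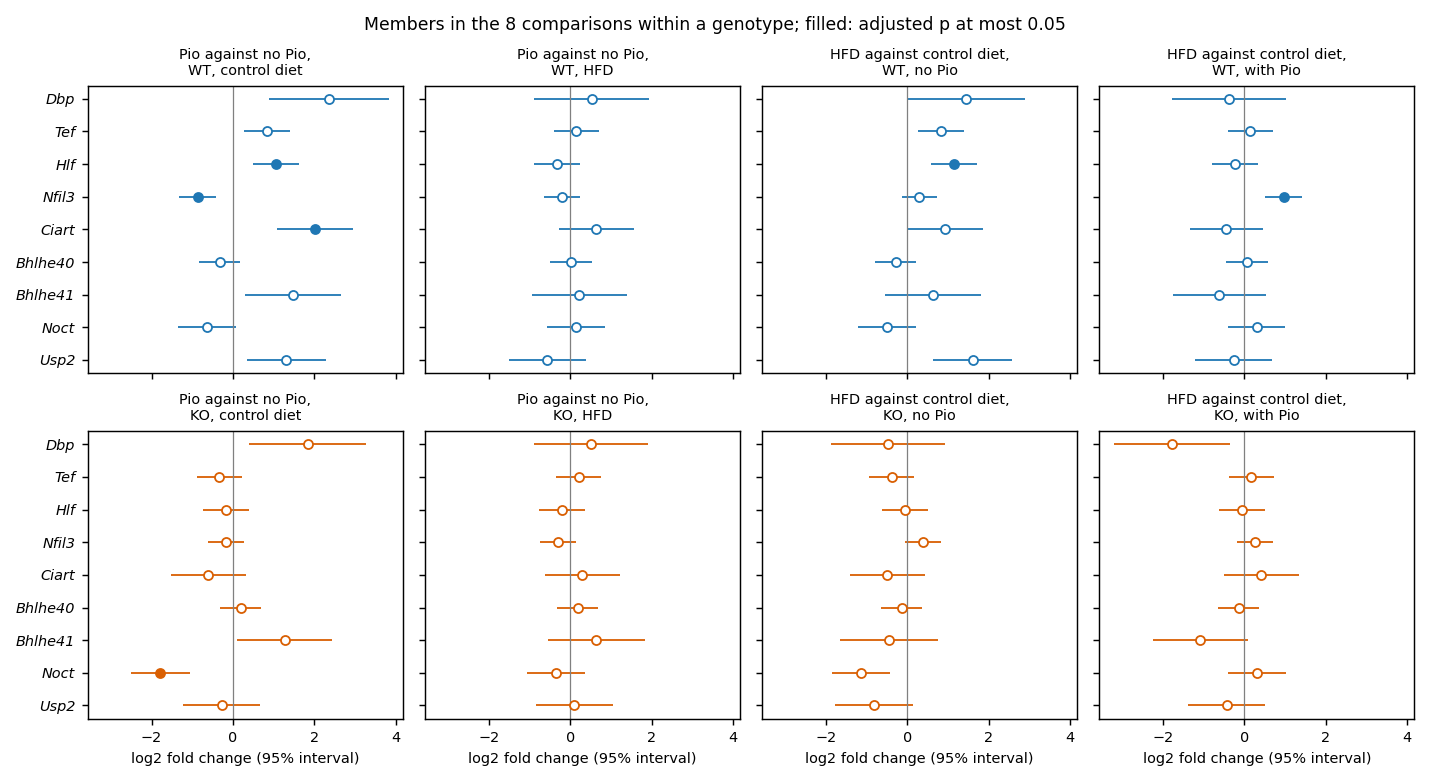
Log2 fold change (horizontal axis, with the 95% interval of the edgeR fit) of the 9 members (vertical axis) in the 4 WT comparisons (top, blue) and the 4 KO comparisons (bottom, orange). Filled points have an adjusted p of at most 0.05: Hlf, Nfil3 and Ciart for Pio on control diet, Hlf for HFD and Nfil3 for HFD with Pio in WT, and Noct for Pio on control diet in KO.

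Counted over the set, pioglitazone on control diet in WT liver gave 3 calls of 9, Hlf and Ciart higher and Nfil3 lower, where 3.91% of all tested genes were called. A total of 4 of 9 members separated the groups without overlap, Dbp, Ciart and Usp2 higher and Nfil3 lower, where 7.53% of all genes did. At an unadjusted p under 0.05 there were 7 of 9 members and 17.9% of genes. The median log2 difference of the 9 members was 1.06, and that of all tested genes -0.02. The members were chosen with earlier results of these data known, and several vary together between mice. The shares over all genes are therefore no test of the set. The number of calls ranged from 1, without WT control mouse 834 or WT Pio mouse 845, to 5, without WT control mouse 835 or KO Pio mouse 13. Without KO Pio mouse 13, 15.6% of all genes were called. On HFD, pioglitazone gave no call in WT, where 1.08% of genes were called, and no member reached an unadjusted p under 0.05, where 15.6% of genes did. No member separated the groups there, where 7.12% of genes did. DESeq2 and limma also gave 0 there, where they called 2.78% and 8.4% of genes.

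HFD against control diet in WT gave 1 call of 9 without pioglitazone (Hlf; 1.31% of genes) and 1 with it (Nfil3; 1.22% of genes). The call of Hlf was lost without any of WT control mice 832, 833 and 834 or WT HFD mice 826, 828 and 829, and that of Nfil3 without any 1 of the 5 WT HFD-Pio mice or of WT Pio mice 843 and 845, where the adjusted p reached 0.146. At an unadjusted p under 0.05 these comparisons held 3 members (13.2% of genes) and 1 member (14.2%), and groups without overlap were found for 0 members (3.05% of genes) and for Nfil3 (6.49%). In KO, pioglitazone on control diet gave 1 call (Noct; 9.01% of genes), and 2 without KO Pio mouse 11 or 12, when Dbp was also called. It held 3 members at an unadjusted p under 0.05 (27.6% of genes) and 1 with groups that did not overlap, Noct (3.7% of genes). The other 3 KO comparisons gave 0 calls of 9 with edgeR, DESeq2 and limma, where 0.0155% of genes were called for pioglitazone on HFD, 0.185% for HFD without pioglitazone and 4.96% for HFD with it. At an unadjusted p under 0.05 they held 0, 1 (Noct) and 1 (Dbp) member, where 1.04%, 4.6% and 24% of genes did, and no member separated the groups, where 0.61%, 3.04% and 2.43% of genes did. Dbp became a call in the last of them without KO Pio mouse 11 or 12.

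Of the 6 tests of a difference between effects, that between genotypes for pioglitazone on control diet held the call of Ciart described above. The other 5 called 0 of 9 members. For pioglitazone between the diets, 0.0773% of genes were called in WT and 0% in KO, and an unadjusted p under 0.05 was found for 4 members and 12.1% of genes in WT and for 1 member and 12.1% in KO. For pioglitazone on HFD between genotypes, 0.0927% of genes were called, with 0 members and 5.93% of genes under the unadjusted threshold. For HFD between genotypes, 0.0618% of genes were called without pioglitazone and 0.0155% with it, with 4 members and 9.43% of genes, and 1 member and 19.3%, under the unadjusted threshold. Hlf was called for the 2 diets in WT without KO Pio mouse 13 and by limma, and Usp2 for the HFD effect between genotypes by DESeq2.

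The core clock genes, which share these mice, gave 5 calls of 12 for pioglitazone on control diet in WT, where 3.91% of all tested genes were called. This list and the gene lists that follow were also chosen with earlier results of these data known, so their counts test no set. Per3, at 11.1 ± 7.20 CPM in control and 35.5 ± 3.08 CPM in Pio mice, rose by 1.67 on the log2 scale (adjusted p = 0.0341) and Nr1d2 by 0.63 (adjusted p = 0.0332), while Arntl fell by 1.23 (adjusted p = 0.0311), Npas2 by 2.10 (adjusted p = 0.00829) and Cry1 by 1.54 (adjusted p = 0.00171). The count was 2 without WT control mouse 832, 833 or 834 or WT Pio mouse 845, 3 without mouse 831, 842 or 844, and 2 with no filter on low counts. In KO the same comparison called none of the 12, where 9.01% of all genes were called. There 2 of the 12 had an unadjusted p under 0.05, as did 27.6% of all genes. Limma with sample weights called 3 (9.4% of all genes), DESeq2 0 (11%), and edgeR without the 5 libraries that stand apart 3 (2.52%). The effects differed between genotypes for Arntl (KO minus WT, 2.07), Npas2 (3.23) and Cry1 (1.84), with adjusted p of 0.00957, 0.00487 and 0.00765. That test called 7.87% of all genes.

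**Figure D3:**
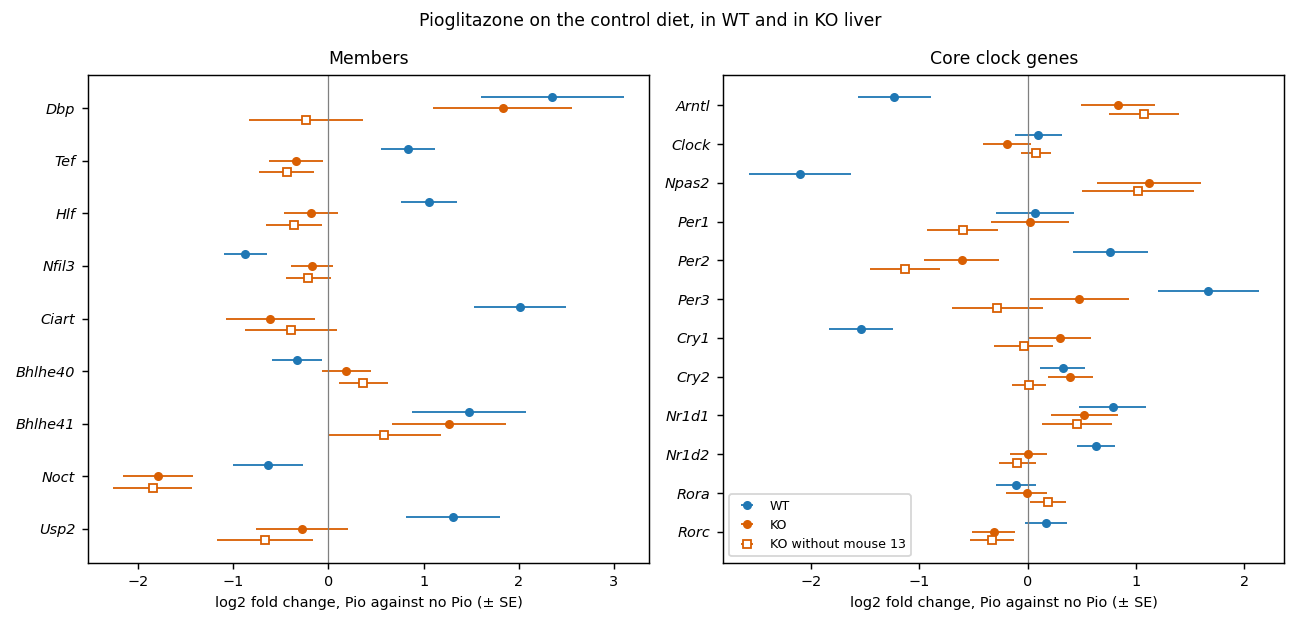
Log2 fold change of Pio against no Pio on control diet (horizontal axis, with SE) for the 9 members (left) and 12 core clock genes (right), in WT (blue), KO (orange circles) and KO without mouse 13 (open squares). In KO, Dbp stands at 1.83 with mouse 13 and at -0.23 without it, while Noct stands at -1.79 and -1.85; Arntl and Npas2 lie below 0 in WT and above 0 in KO.

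Genes reported to depend on the PAR bZIP factors were Alas1, Por, Nr1i3, Cyp2a5, Cyp2b10, Cyp7a1 and Ppara. Of these 7, pioglitazone on control diet in WT called 1, Cyp7a1, which encodes the rate-limiting enzyme of bile acid synthesis and went from 10.8 ± 4.62 to 53.1 ± 17.7 CPM, a log2 difference of 2.31 (adjusted p = 0.000975). The median of the list was 0.83, against -0.02 over all tested genes. An unadjusted p under 0.05 was found for 5 of 7 and for 17.9% of all genes, and 3.91% of all genes were called. HFD in WT, where 1.31% of all genes were called, called 2, Cyp7a1 (2.27, adjusted p = 0.00249) and Nr1i3 (1.95, adjusted p = 0.00604), the nuclear receptor CAR. In KO, pioglitazone on control diet called 9.01% of all genes. It called the same 2 genes lower, Cyp7a1 by -1.47 (adjusted p = 0.0264) and Nr1i3 by -1.17 (adjusted p = 0.0486), where the members Dbp, Tef and Hlf were not called. Without KO Pio mouse 13 neither was called, and Nr1i3 lost its call in 31 of 46 alternative fits. The effects of pioglitazone on control diet differed between genotypes for both, by -3.77 for Cyp7a1 (adjusted p = 0.000521) and -2.08 for Nr1i3 (adjusted p = 0.0191). On pioglitazone, HFD against control diet in KO gave a rise of Cyp7a1 by 2.26 (adjusted p = 0.0117), not called without KO HFD-Pio mouse 20.

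Over all genes, pioglitazone on control diet called 3.91% in WT and 9.01% in KO, and an unadjusted p under 0.05 was found for 17.9% and 27.6%. Among 6 other clock-controlled liver genes it called 1 in WT, Nampt, which encodes the rate-limiting enzyme of NAD salvage (log2 difference 0.60, adjusted p = 0.0242), and 0 in KO. The call of Nampt was lost when low counts were not filtered, and when WT control mouse 831, 832 or 834 or WT Pio mouse 842 or 845 was left out, with an adjusted p of at most 0.128. Among 7 heat- and cold-responsive genes it called 0 in WT, where 3 had an unadjusted p under 0.05, and 2 in KO, the heat shock protein gene Hsph1 lower (-0.92, adjusted p = 0.0148) and Cirbp, the cold-inducible RNA-binding protein gene, higher (1.01, adjusted p = 0.0305). Without mouse 13 neither was called, and the difference of Cirbp was 0.36 (adjusted p = 0.573). Among 6 glucocorticoid-responsive genes it called Sgk1 lower in WT (-1.25, adjusted p = 0.00433; -0.78 and still called without WT control mouse 832) and Tsc22d3 lower in KO (-0.95, adjusted p = 0.0304), the latter not called without mouse 13. Sgk1 was also lower under HFD in WT (-1.07, adjusted p = 0.0276), at -0.61 and not called without WT control mouse 832, and also not called without any of WT HFD mice 828, 829 and 830. The pioglitazone effects on control diet differed between genotypes for Nampt (-0.91, adjusted p = 0.0148) and Sgk1 (1.28, adjusted p = 0.0284; 0.81 and not called without WT control mouse 832, and also not called without KO control mouse 1 or 4 or WT Pio mouse 842). The part of body temperature, stress or feeding in the members' levels was not tested.

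The summed level of the hepatocyte markers overlapped between WT control, 68445 to 119318 CPM, and WT Pio liver, 69034 to 127435 CPM, with 0 of 5 called. Of the blood markers 1 of 3, Alas2, fell in that comparison, where 3.91% of all genes were called. The summed level of the 3 was 250.8 to 1555 CPM in control and 332.7 to 815.0 CPM in Pio mice. Of 4 adipocyte markers only Car3 passed the filter, and it rose by 1.14. Adipoq, Lep and Plin1 stayed at or below 2.16 CPM in all mice. The median over all mice was 1914 CPM for Car3, 0.0768 CPM for Adipoq, 0 CPM for Lep and 0.0396 CPM for Plin1. The rise of Car3 alone is therefore not read as a change in adipocyte content, which was not tested. In KO, Hba-a1 was the 1 of 3 blood markers called higher under Pio, and the hepatocyte sum was 31558 to 121302 CPM in Pio against 82326 to 110789 CPM in control mice. No macrophage, endothelial, stellate or cholangiocyte marker was called in either comparison. Their part in the members' values was not tested.

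The members' patterns were compared by the deviation of each mouse from its group mean in log2 CPM, within the 20 mice of each genotype. The likeness of a pair was the smaller of their WT and KO Pearson r, as a description over mice that share groups and libraries. The 5 genes most like Dbp were the clock repressor gene Per3 (r of 0.92 in WT and 0.94 in KO), Tef (0.87 and 0.86), Lipe, which encodes hormone-sensitive lipase (0.83 and 0.83), Bhlhe41 (0.82 and 0.81) and Fzd4, which encodes a Wnt receptor (0.80 and 0.87). Without KO Pio mouse 13, Per3 and Tef were still the first 2, followed by Trmt2b, Prosc and Azin1. Leaving out in each genotype the 2 mice farthest from the median (829 and 835 in WT, 13 and 9 in KO) gave r of 0.88 and 0.88 for Per3 and of 0.76 and 0.91 for Tef. Spearman's rho over all mice was 0.81 and 0.90 for Per3 and 0.86 and 0.80 for Tef. It was 0.73 and 0.65 for Lipe and 0.74 and 0.71 for Fzd4. For Bhlhe41 rho was lower in KO, at 0.77 in WT and 0.52 in KO, and at 0.68 and 0.38 without those mice.

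Nfil3 did not mirror Dbp within groups in WT (r = 0.09, n = 20), where it was lower and Dbp higher in the Pio group, and in KO r was -0.45 (n = 20), -0.79 (n = 19) without mouse 13, and -0.54 without mice 13 and 9. Arntl ran against Dbp in both genotypes, with r of -0.69 in WT and -0.89 in KO. With Dbp, Noct had r of -0.44 in WT and -0.05 in KO (-0.20 without mouse 13), and Hlf had 0.52 in WT and 0.87 in KO. Spearman's rho of Hlf with Dbp was 0.38 in WT and 0.68 in KO. These values are given without a test.

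**Figure D4:**
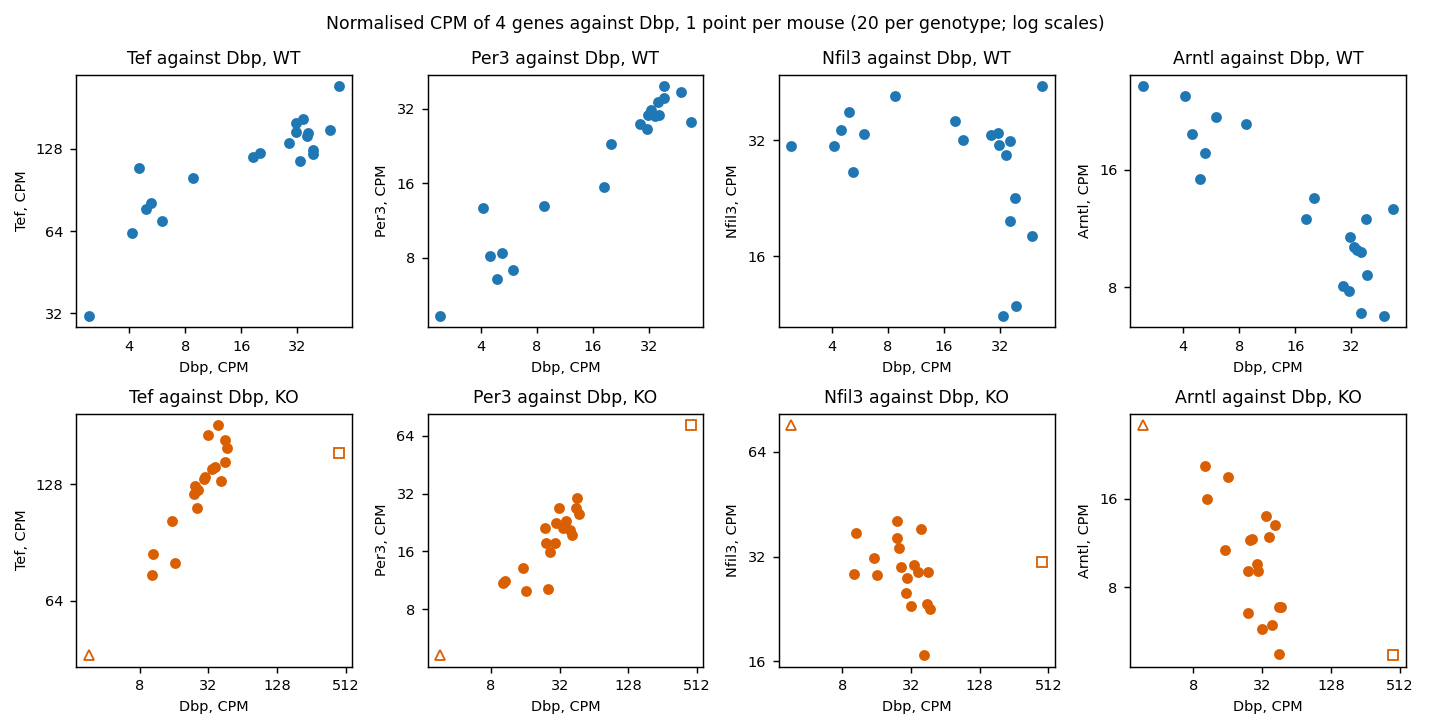
Normalised CPM of Tef, Per3, Nfil3 and Arntl (vertical axes) against Dbp (horizontal axes), both on log scales, 1 point per mouse, for 20 WT (top, blue) and 20 KO livers (bottom, orange; open square mouse 13, open triangle mouse 9). Tef and Per3 rise with Dbp and Arntl falls in both genotypes, and the WT mice leave a gap between 8.75 and 18.4 CPM of Dbp.

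The genes most like the other members were Ngef and Dbp for Tef, Peli2 and Teddm2 for Hlf, Grk6 and Gm6493 for Nfil3, Fmo1 and Tef for Ciart, Klf10 and Irf2 for Bhlhe40, Dbp and Cyp26b1 for Bhlhe41, Plxna3 and Adcyap1r1 for Noct, and Dbp and Bhlhe41 for Usp2. The likeness of the first of each pair was highest for Tef (0.89) and lowest for Ciart (0.55) and Nfil3 (0.57). Klf10, a TGF-β-inducible factor, and Bhlhe40 had r of 0.83 in WT and 0.81 in KO. Without mouse 13 the nearest gene changed for Hlf (Dhdh), Ciart (Per3) and Bhlhe41 (Clmn), and remained Ngef for Tef, Grk6 for Nfil3, Klf10 for Bhlhe40, Plxna3 for Noct and Dbp for Usp2.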

How the data were processed

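Liver RNA was selected for poly-A and sequenced. Per the study's methods, the authors aligned the reads with STAR 2.0.4b to GRCm38 of Ensembl release 76, and Subread featureCounts 1.4.5 then assigned reads with 1 alignment and 1 possible gene. The deposited values are raw read counts per gene, in a WT and a KO table. The strand setting is not given in the sources used here. The tables were joined by Ensembl ID (40594 genes; 96 IDs of the WT table only were left out), repeated lines of a gene with the same counts were read once, and 355 rRNA genes were removed. No 2 libraries held identical counts.

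The 12942 genes that reached 1 CPM in 5 or more of the 40 mice were normalised by TMM and fitted with the robust quasi-likelihood F test of edgeR 4.0.16 (R 4.3.3), 1 mean per group, for 8 comparisons within a genotype and 6 differences of effects; p-values were Benjamini-Hochberg adjusted within a comparison over all genes and called at 0.05. The study itself used limma with sample weights. Single members were also tested by an exact two-sided permutation test on log2 CPM (prior count 2), with no correction over members and comparisons. Alternatives were RLE size factors, DESeq2 1.42.0, limma 3.58.1 with sample weights, no filter (at least 1 count in 1 mouse), each genotype fitted alone, and each mouse left out; the fit without the 5 libraries that stand apart, the fits of Sphk2 without 1 mouse, and the likeness without mouse 13 or without the 2 farthest mice, were chosen after the data were seen. In counts simulated for pioglitazone on control diet in WT (12942 genes), 70% of 100 genes changed by 1 on the log2 scale and 96% of 100 changed by 2 were called. Among the unchanged genes 12 were called. The changed genes were drawn from all but the scarcest, mice were drawn independently, and no library was made to stand apart. These shares are not those of the members, of which Dbp and Bhlhe41 had a spread in WT at percentile 98.8. Positions are GRCm38 (GENCODE M21), and start windows are from RefSeq (GRCm38.p6); 8 of 9 members have one. The text names all 9 members, list genes where called or beside a member's result, the 5 genes most like Dbp and the 2 most like each other member. The members and lists were chosen with earlier results of these data known. Library totals (15788242 to 49857017) set the counting error, which is largest for Bhlhe41 and is part of the spread between mice.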

Additional observations from a re-analysis of the deposited data

Results flagged for a closer look

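Within a group of 5 mice, a value was marked where the gap to its nearest neighbour took up more than 0.71 of the range of the group. Of 72 groups checked (9 members in 8 groups), 11 had such a value. The limit marks about 1 in 20 groups of independent, normally distributed values. The values here were CPM, not on a log scale, and the members share mice, so that rate does not apply to the 11. Mouse 9 of the KO HFD group was marked for Dbp (2.87 CPM against 24.2 to 29.7 in the others; gap 0.797 of the range), Tef (46.3 against 123.3 to 133.9; 0.879), Hlf (37.2 against 70.1 to 81.4; 0.744) and Nfil3 (76.2 against 25.2 to 36.2; 0.785). Mouse 13 of the KO Pio group was marked for Dbp (449.9 against 10.2 to 41.5 CPM; 0.929). The other marked values were Dbp in WT control mouse 835 (20.2 against 2.42 to 5.99 CPM; 0.799), Hlf in WT Pio mouse 845 (134.5 against 59.6 to 77.1; 0.766), Nfil3 in KO Pio mouse 15 (16.7 against 28.3 to 30.8; 0.823), Bhlhe41 in KO HFD-Pio mouse 16 (0.891 against 2.98 to 3.59; 0.771), Noct in KO control mouse 5 (226.8 against 50.7 to 82.9; 0.817) and Usp2 in WT HFD mouse 829 (97.0 against 16.6 to 37.5; 0.740). Mice 9, 13, 845 and 829 are among the libraries that stand apart from their genotype over all genes, and mice 835, 15, 16 and 5 are not.

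Effects that differed between groups by a test of the difference itself (edgeR, adjusted p at most 0.05) were found for 1 member and 7 genes of the lists, markers of other cell types left aside. For pioglitazone on control diet, KO minus WT in log2 units, they were Ciart (-2.62), Arntl (2.07), Npas2 (3.23), Cry1 (1.84), Nr1i3 (-2.08), Cyp7a1 (-3.77), Nampt (-0.91) and Sgk1 (1.28). Cyp7a1 also differed for pioglitazone between HFD and control diet in WT (-3.09) and for HFD between KO and WT with pioglitazone (3.08). These last 2 calls of Cyp7a1 were lost in 13 of 46 and in 12 of 45 alternative fits, both with no filter on low counts, the first without WT control mouse 832 (-2.99, adjusted p = 0.0600) and the second without KO Pio mouse 13 (2.91, adjusted p = 0.0517). The genotypes were counted in separate tables, and differences of effects are taken within each table first.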

How the results depend on the processing

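No paired analysis was possible because the groups share no replicate numbers: each number names 1 mouse. For members called, DESeq2 gave 5 and limma 5 in place of 3 for pioglitazone on control diet in WT (range 1 to 5 with each mouse left out), where 6.28% and 23.9% of all genes were called in place of 3.91%. For HFD without pioglitazone in WT, in place of 1, DESeq2 gave 2 (2.91% of all genes, in place of 1.31%), no filter 0 (0.363%) and each genotype fitted alone 2 (2.77%), with a range of 0 to 2. For HFD with pioglitazone in WT the range was 0 to 1. For pioglitazone on control diet in KO the genotype fitted alone gave 0 in place of 1 (range 1 to 2), and for HFD with pioglitazone in KO the range was 0 to 1. For the difference of pioglitazone effects between diets in WT, limma gave 1 in place of 0 (range 0 to 1), where 10.6% of all genes were called in place of 0.0773%. For that between genotypes on control diet, in place of 1, DESeq2 gave 3, limma 5 and the fit without the 5 libraries that stand apart 4 (range 1 to 3). There 10.8%, 15.4% and 7.84% of all genes were called in place of 7.87%. For the HFD effects between genotypes without pioglitazone DESeq2 gave 1 in place of 0, where 0.703% of all genes were called in place of 0.0618%. The number of members separated by group was 1 in place of 0 without the 5 libraries for pioglitazone on HFD in KO (range 0 to 1), with ranges of 0 to 1 for HFD without pioglitazone in WT and in KO. Core clock genes called for pioglitazone on control diet were 2 with no filter (1.13% of all genes) in place of 5 in WT (range 2 to 5). In KO they were 3 with limma (9.4%) and 3 without the 5 libraries (2.52%), in place of 0. For the difference between genotypes they were 6 with limma and 5 without the 5 libraries, in place of 3 (range 3 to 5). Of the genes reported to depend on PAR bZIP factors, pioglitazone on control diet in WT called 2 with DESeq2, 4 with the genotype fitted alone and 2 without the 5 libraries, in place of 1 (range 1 to 3). Of all genes, 6.28%, 7.52% and 15.2% were called there, in place of 3.91%. In KO it called 1 with no filter (2.94% of all genes), 0 with the genotype fitted alone (0%) and 0 without the 5 libraries (2.52%), in place of 2 (range 0 to 3). The sign of Dbp turned in KO: for pioglitazone on control diet from 1.83 to -0.079 with limma and -0.26 without the 5 libraries (range -0.23 to 2.17), and for HFD with pioglitazone from -1.79 to 0.23 and 0.30 (range -2.12 to 0.29); in both ranges mouse 13 set the turn. The cause of the other changes was not tested. Of the 7 member calls, 2, those of Ciart, stood in every alternative. Counts from 5 mice a group limit what smaller changes could be called.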

Other observations

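Pparg itself had group means of 8.59 (WT control), 12.4 (WT Pio), 11.3 (WT HFD), 10.4 (WT HFD-Pio), 7.36 (KO control), 4.60 (KO Pio), 6.29 (KO HFD) and 7.27 (KO HFD-Pio) CPM. The effect of pioglitazone on control diet was 0.53 in WT (adjusted p = 0.199) and -0.68 in KO (adjusted p = 0.0558) on the log2 scale, and KO minus WT was -1.21 (edgeR, adjusted p = 0.0219). Of the core clock genes not described beside Dbp above, Cry2, a repressor, had r with Dbp within groups of 0.76 in WT and 0.94 in KO (n = 20 each), and Npas2 had -0.78 and -0.44. Without KO Pio mouse 13 alone the KO values were 0.90 for Cry2 and -0.83 for Npas2 (n = 19). Without the 2 mice farthest from the median in each genotype they were 0.65 and 0.90 for Cry2 and -0.77 and -0.58 for Npas2, given as a description with no test.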
